A study of Mus musculus with 6 samples.

Results

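The replication-dependent histone genes encode the core histones H2A, H2B, H3 and H4 and the linker histone H1 that package newly made DNA. They were taken as every symbol of the form Hist1h to Hist4h in the gene list of the count matrix, which gave 63 of 24568 symbols: 6 of H1, 16 of H2A, 16 of H2B, 12 of H3 and 13 of H4. The cells came from fetal small intestine of C57/BL6 mice of a Pdgfra-H2BGFP line, in which the Pdgfra promoter drives a histone H2B fused to green fluorescent protein. The 6 labelled samples are 2 lanes of live Ter119-negative cells and 1 lane enriched for rare cells (CD31, CD45, Epcam or bright GFP) from pooled E15.5 and E16.5 embryos, and the same 3 lanes from pooled E13.5, E14.5 and E18.5 embryos. Tissues carried lipid-bound barcodes (MULTI-seq), but the matrix holds no such assignment and no label ties a cell to a lane or an age. Cell barcodes carry 6 suffixes, called here sets A1, A2 and A3 (ending _1) and B1, B2 and B3 (ending _2). The sets served as strata, not as samples, so no test between conditions could be made and every interval below covers counting error only.

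Most messenger RNAs end in a poly(A) tail, whereas histone mRNAs of this class normally end just after a short stem-loop bound by SLBP, the stem-loop binding protein. They are made in quantity during DNA replication and are broken down when replication stops. Some of these genes can also give longer, polyadenylated transcripts from a site downstream of the stem-loop. The libraries were primed on poly(A) RNA and read its 3′ ends, so the counts below are of the molecules that such priming caught, and a count compares a gene with itself across cells better than one gene with another.

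The stem-loops below show the ends to which SLBP binds, with the 16 matched bases in capitals, from the GENCODE M21 transcript models on GRCm38. Hist3h2a, whose counts differed from those of most members, has the same 16 bases as Hist1h1e and Hist1h2ae.
Hist1h1e: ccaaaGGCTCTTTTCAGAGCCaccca
Hist1h2ae: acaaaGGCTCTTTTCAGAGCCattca
Hist1h3c: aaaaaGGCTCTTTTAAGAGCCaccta
Hist1h4d: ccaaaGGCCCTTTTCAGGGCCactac
Hist1h4b: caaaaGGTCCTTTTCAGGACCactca
Hist3h2a: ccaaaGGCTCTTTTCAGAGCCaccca
The 16-base pattern searched on the transcript strand was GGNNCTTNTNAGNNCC. Its fixed letters were thus set by the search, and the 8 forms found differ at every N. A match was present in 45 of the 63 models, against 82 of 18073 other genes with a coding transcript (0.454%). The form of Hist1h1e was the commonest, in 25 members and no H4 gene, and that of Hist1h4d was found in 7 members, all H4. Of the 18 models without a match, 11 were shorter than 420 bases and thus may stop at or before the place where the stem-loop would lie, as the model of Hist1h2an does at 393 bases.

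A poly(A) signal, AATAAA, was found within the last 40 bases of 12 models. The last 30 bases of 4 of these are shown with the signal in capitals, since these genes differ widely in their tie to proliferation.
Hist1h2ae: ccAATAAAtgggtcaatttttttcagattc
Hist1h1c: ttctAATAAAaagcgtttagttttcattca
Hist2h2be: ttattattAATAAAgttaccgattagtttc
Hist3h2ba: attAATAAAtttggttcaattttggccaca
In Hist1h2ae the end of the model lies 151 bases beyond the stem-loop, in Hist1h1c 840 and in Hist3h2ba 169. Hist2h2be has no match to the stem-loop motif.

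The members lie in 4 places. Chromosome 13 holds 51 between positions 21715763 and 23764406 (GRCm38), chromosome 3 holds 9, chromosome 11 holds Hist3h2a and Hist3h2ba, and chromosome 6 holds Hist4h4. RefSeq promoters (GRCm38.p6) matched 56 members. In the 250 bases before the start, CCAAT on either strand was present in 80.4% of the members' promoters and 33.8% of all promoters, TATAAA in 48.2% and 12.4%, and the octamer ATTTGCAT in 19.6% and 1.60%. All 34 matched promoters of H1, H2A and H2B genes held CCAAT and 25.0% of the H4 promoters did. The octamer was found in 6 of 15 H2A and 5 of 13 H2B promoters and in no H1, H3 or H4 promoter. Some windows of neighbouring H2A and H2B genes overlap, as those of Hist1h2ai (21716162 to 21716411) and Hist1h2bl (21716184 to 21716433) do. The same motif could then count for both genes, so these promoters are not all separate.
Below are 4 of these promoters, for the H1 member with the most counts, an abundant H2A and H4 member, and Hist3h2a, with the 3 motifs in capitals on whichever strand they occur.
Hist1h1b, chr13:21780626-21780875, minus strand: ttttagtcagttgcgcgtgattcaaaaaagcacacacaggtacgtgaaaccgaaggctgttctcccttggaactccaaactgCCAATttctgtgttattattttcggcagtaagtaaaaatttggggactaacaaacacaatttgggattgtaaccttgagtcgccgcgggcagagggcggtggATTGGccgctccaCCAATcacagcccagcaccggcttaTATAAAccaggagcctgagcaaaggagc
Hist1h2ae, chr13:23571221-23571470, minus strand: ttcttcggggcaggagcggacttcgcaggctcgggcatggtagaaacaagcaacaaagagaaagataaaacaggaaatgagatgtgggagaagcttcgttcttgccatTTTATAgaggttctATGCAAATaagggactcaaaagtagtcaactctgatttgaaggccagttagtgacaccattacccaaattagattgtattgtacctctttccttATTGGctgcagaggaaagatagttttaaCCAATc
Hist1h4d, chr13:23581318-23581567, plus strand: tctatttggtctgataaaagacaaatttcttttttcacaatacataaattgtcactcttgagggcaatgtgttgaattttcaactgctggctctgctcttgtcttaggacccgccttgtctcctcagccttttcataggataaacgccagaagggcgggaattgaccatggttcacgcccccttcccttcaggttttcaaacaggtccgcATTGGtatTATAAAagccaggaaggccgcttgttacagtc
Hist3h2a, chr11:58954435-58954684, plus strand: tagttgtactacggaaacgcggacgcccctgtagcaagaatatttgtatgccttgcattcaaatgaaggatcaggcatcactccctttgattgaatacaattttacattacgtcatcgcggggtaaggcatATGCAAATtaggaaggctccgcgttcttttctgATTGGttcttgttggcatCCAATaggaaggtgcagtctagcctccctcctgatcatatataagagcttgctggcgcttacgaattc
Hist3h2a carries both the octamer and CCAAT, as Hist1h2ae does. A match is a description of the letters and not of binding.

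Of 13127 barcodes, 12623 cells were kept, with median totals of 12127, 13586 and 7058 UMIs (unique molecules) in A1, A2 and A3 and of 4175, 4115.5 and 3548 in B1, B2 and B3. They held 214411 histone UMIs. The 7 general mesenchyme markers summed to 7447 CPM (UMIs scaled to a common total per group) in cells with no Mki67 or Top2a UMI, against 88.6 for 7 epithelial, 41.3 for 6 endothelial and 39.5 for 6 blood markers, and all but 36 cells fell in clusters named as mesenchyme. Only 22 cell barcodes occurred in more than 1 set. All 63 members had counts in both endings, so none had to be listed apart, while 4767 of all symbols were counted in 1 ending only.

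By UMIs, 58 members had at least 50 in the kept cells. Hist1h1b had 55880, Hist1h2ae 32119, Hist1h2ap 27935, Hist1h1e 19953, Hist1h1a 8560, Hist1h4d 8100, Hist1h3c 5553, Hist1h1d 5124, Hist1h1c 4766 and Hist2h2ac 3837. The 5 under 50 were Hist1h2ao (38), Hist1h4m (36), Hist1h1t (33), a linker histone known from testis, Hist2h3c1 (31) and Hist2h3c2 (11), and they enter the summed levels only.

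Histone transcripts sat in proliferating cells. Cells were classed by their summed UMIs of Mki67, a protein of dividing nuclei, and Top2a, the topoisomerase that untangles replicated DNA. The summed level was 312 CPM (95% Poisson interval 306 to 317) in 6827 cells with 0 such UMIs, 415 (404 to 427) in 1721 cells with 1 and 4028 (4010 to 4046) in 4075 cells with 2 or more. The last class, 32.3% of cells, held 92.2% of all histone UMIs. Listed from A1 to B3, class 0 stood at 342, 340, 470, 257, 242 and 243 CPM. Class 2+ stood at 5095, 3521, 3912, 2570, 2787 and 2576 CPM in the same order. The 2 classes did not overlap over the sets. The log2 ratio pooled within sets (Mantel-Haenszel) was 3.55 (95% interval 3.51 to 3.58) and was above 0 in 6 of 6 sets.

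The step lay high in the scale. Cells with 2 to 4 Mki67 and Top2a UMIs had 573 CPM and those with 5 or more 4874, so that 24.5% of cells held 89.7% of the histone UMIs; this division was chosen after the levels had been seen. From A1 to B3, cells with 2 to 4 stood at 576, 541, 553, 681, 549 and 1162 CPM and cells with 5 or more at 6105, 4294, 5327, 2987, 3281 and 2844, so B3 had the highest level of the first class and the lowest of the other. A median cell with 0 such UMIs had 1 histone UMI, and one with 5 or more had 32.

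Other measures moved with these classes. The median total was 4141 UMIs in class 0 and 12081 in class 2+, red cell markers summed to 1368 and 303 CPM, and cells of the clusters named PDGFRA-high made up 35.5% and 3.02%. With classes set from cells thinned to 2000 UMIs each, the log2 ratio was 3.29. The part of each of these measures in the result was not tested.

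**Figure D1:**
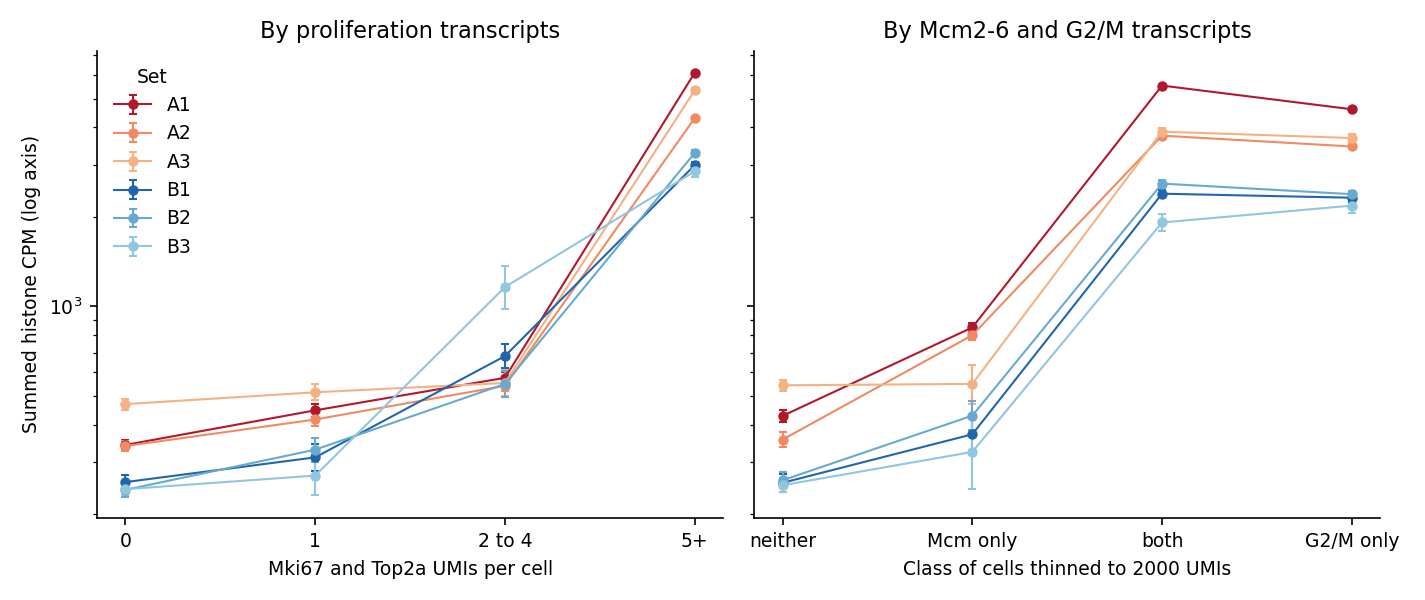
Summed histone CPM (log axis) in each of the 6 sets by Mki67 and Top2a UMIs per cell (left) and by Mcm2-6 and G2/M transcripts in cells thinned to 2000 UMIs (right). Points are levels and bars 95% Poisson intervals; every set lies highest at 5+ UMIs, and the class with Mcm transcripts only lies below both classes with G2/M transcripts in every set.

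All 5 families were higher in the class 2+, by unequal amounts. The log2 ratio was 4.27 for H2A (1470 against 79.9 CPM), 3.66 for H1 (1797 against 112), 3.61 for H3 (245 against 18.3), 2.83 for H4 (306 against 41.9) and 1.75 for H2B (210 against 59.9). The H2B sum in class 0 was mostly Hist1h2bc and Hist3h2ba. Without these 2 genes, left out after their values had been seen, H2B was at 165 against 14.9 CPM (3.49), and the 16 H2B members had a median of 3.34. Of the 58 members with 50 UMIs, 55 had a log2 ratio of 1 or more, as did 3.98% of all genes with 50 UMIs. The members' median was 3.21 and that of all genes -0.08. Members with few UMIs pass the minimum largely through the proliferating cells, so these counts describe the members and support nothing further.

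Hist1h1b, the linker histone H1.5, showed the pattern with the most counts. Its level in class 2+ was 1186, 1326, 1334, 352, 342 and 192 CPM from A1 to B3. In class 0 it was 42.8, 53.8, 49.1, 7.67, 7.71 and 6.22. Every set was thus higher in class 2+ (log2 ratio 4.77, 4.68 to 4.87), and the sets of ending A stood above those of ending B in both classes. Hist1h2ae, an H2A gene, was the next by counts, with 806, 301, 453, 888, 1059 and 1039 CPM from A1 to B3 in class 2+. Its class 0 levels were 22.6, 9.10, 18.2, 40.1, 39.9 and 44.0 (log2 ratio 4.84). For this gene ending B stood above ending A in both classes. The highest ratio belonged to Hist1h2ap, another H2A gene, at 5.59 (5.40 to 5.77). Hist1h4d, an H4 gene, had 3.26 and Hist1h3c, an H3 gene, 4.25.

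The linker histones did not move alike. Hist1h1a and Hist1h1d had log2 ratios of 4.72 and 3.86, Hist1h1e 2.53 and Hist1h1c, H1.2, 1.45. Hist1h1c was at 25.2, 25.3, 51.9, 10.9, 10.6 and 16.9 CPM in class 0 of A1 to B3 and at 77.0, 86.1, 95.5, 22.9, 21.1 and 25.1 in class 2+. Each set was higher in class 2+, although class 0 of A3 lay above class 2+ of every B set. Hist1h1e had 134 CPM in class 0 of A3, against 57.2 and 66.3 in A1 and A2. The last 300 bases of the Hist1h1e model are also part of a Hist1h2be model, so reads of these 2 genes could not be told apart there.

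**Figure D2:**
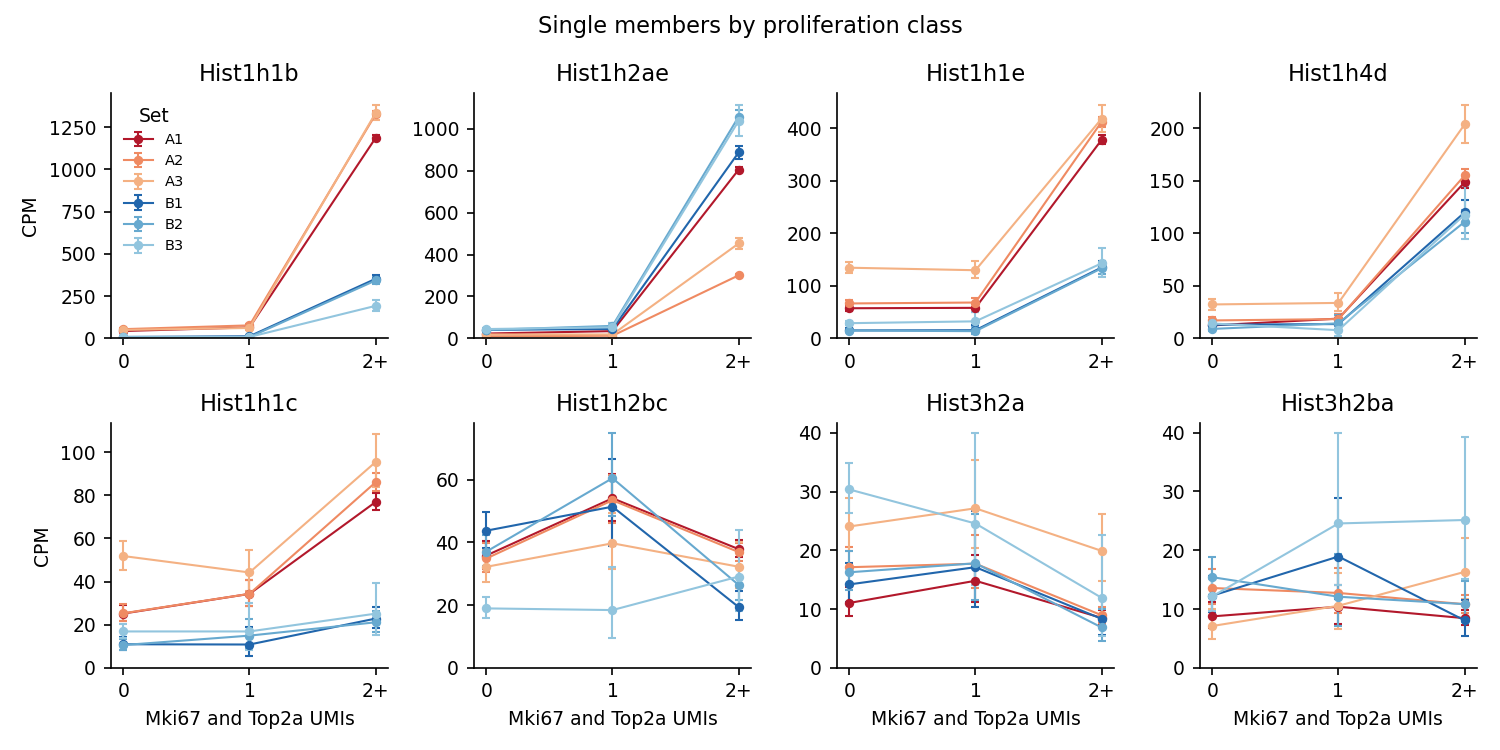
CPM of 8 members by Mki67 and Top2a UMIs per cell, with 1 line per set and bars for 95% Poisson intervals; each axis starts at 0. The upper row and Hist1h1c are highest at 2+ UMIs in every set, whereas Hist1h2bc, Hist3h2a and Hist3h2ba are not.

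Just 3 members with 50 UMIs had a ratio below 1, and in them it lay near or below 0. Hist3h2a was at 11.0, 17.1, 24.0, 14.2, 16.3 and 30.4 CPM in class 0 of A1 to B3 and at 8.50, 8.94, 19.9, 8.34, 6.87 and 11.9 in class 2+. It was lower in class 2+ in each set (log2 ratio -0.72, -0.92 to -0.53). Hist3h2ba, its neighbour on chromosome 11, was at 8.75, 13.6, 7.11, 12.3, 15.4 and 12.1 CPM in class 0 and at 8.45, 10.8, 16.3, 8.07, 10.8 and 25.1 in class 2+. Its classes overlapped (log2 ratio -0.08, -0.28 to 0.12). Hist1h2bc, an H2B gene within the chromosome 13 cluster, was at 35.8, 34.9, 32.2, 43.7, 37.0 and 19.0 CPM in class 0 and at 37.9, 36.9, 32.2, 19.4, 26.4 and 29.1 in class 2+ (log2 ratio -0.12, -0.24 to -0.0050). The next lowest ratios were 1.39 for Hist2h2be and 1.43 for Hist4h4.

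Hist1h2bc stood at 33.4 CPM in cells with 0 Mki67 and Top2a UMIs, at 50.3 with 1, at 70.9 with 2 to 4 and at 25.9 with 5 or more. Its ratio of class 2+ over 0 thus averages a higher and a lower level. Cells were clustered within each ending, without the members, Mki67, Top2a or the gene lists set beside them below. Hist1h2bc led cluster A-4 (77.8 CPM) and was among the leading genes of A-10 (132 CPM) and B-6 (88.4 CPM). These levels describe the clusters and were not tested. Cluster A-10, of 248 cells led by Cdkn3, Cenpa and Knstrn, genes of mitosis, had 88.7% of its cells in class 2+ but a summed histone level of 674 CPM. The other clusters of ending A with over 90% of cells in class 2+ had 4958 to 6959 CPM of histone transcripts and 13.3 to 39.9 CPM of Hist1h2bc. The lowest of these, A-6 at 4958 CPM, was also led by genes of G2 and mitosis (Ube2c, Fam83d and Aurka).

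**Figure D3:**
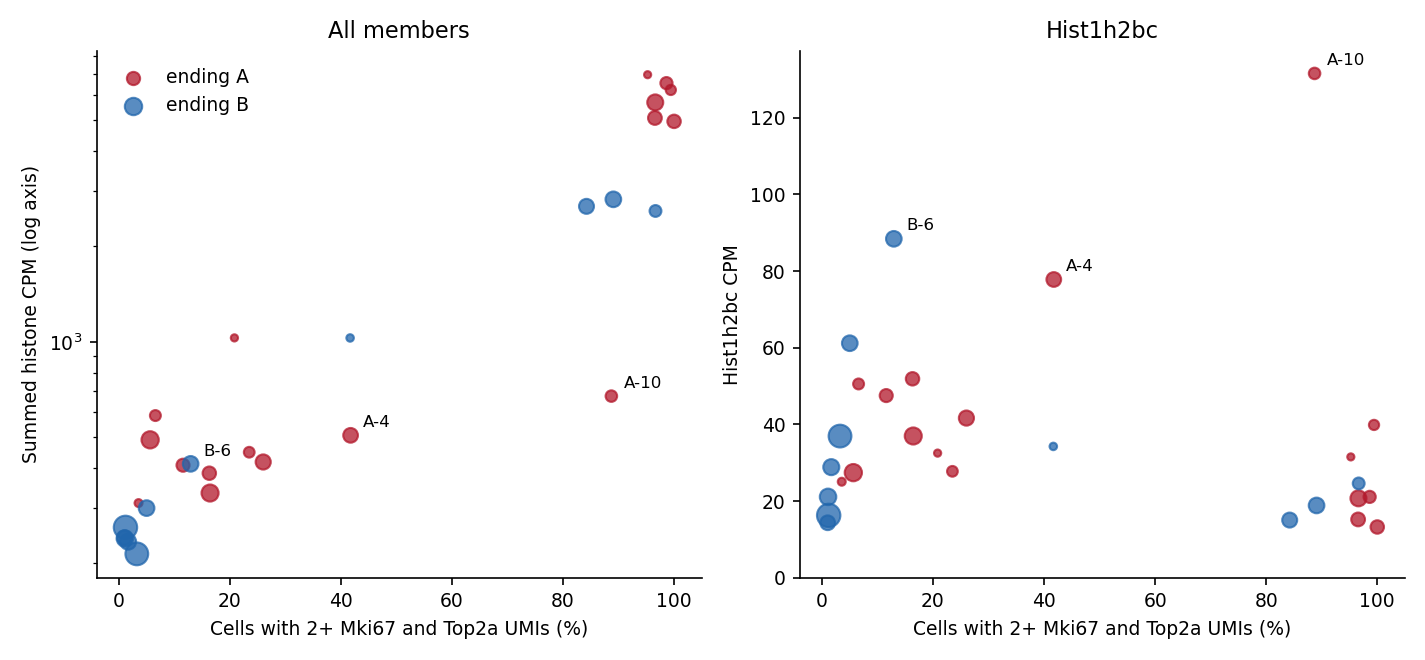
Summed histone CPM (log axis, left) and Hist1h2bc CPM (right) of each cluster against its percentage of cells with 2+ Mki67 and Top2a UMIs; red is ending A, blue ending B, and point size follows the number of cells. Cluster A-10 is low for all members, at 674 CPM, and highest for Hist1h2bc, at 132.

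Members with AATAAA near the end of the model had lower ratios as a group. The 10 members with AATAAA in the last 40 bases of the model and at least 50 UMIs had a median log2 ratio of 1.49, and 7 of them lay under 2. The 48 members without it had a median of 3.28, and 2 lay under 2. Hist1h2ae (4.84) and Hist1h2br (3.45) were the 2 with a ratio of 3 or more among those with the signal. Hist1h2bc (-0.12) was 1 of the 2 under 2 among those without. Its model has no signal in the last 40 bases and no stem-loop match. Grouped by the tail instead, medians were 3.17 for 19 members with at most 60 bases after the stem-loop, 2.72 for 21 with more and 3.92 for 18 without a match. The highest median thus lay with the models without a match, and 11 of these 18 were shorter than 420 bases. Such models may stop before a stem-loop or signal, so a missing signal need not describe the real 3′ end. Both groupings were chosen after the levels had been seen, rest on annotated models and were not tested.

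Mcm2 to Mcm6, subunits of the helicase that opens replication origins, mark entry into S phase. For these, each cell was thinned to 2000 UMIs. Summed histone levels were 1499 CPM (1488 to 1510) in 7659 cells with 0 Mcm UMIs and 3009 (2988 to 3030) in 2222 cells with 2 or more, a log2 ratio within sets of 0.56 (0.55 to 0.58). The ratio was above 0 in 6 of 6 sets, and from A1 to B3 it was 0.49, 0.50, 1.40, 0.74, 0.75 and 1.39. It was thus far below the ratio for Mki67 and Top2a in each set, although those classes were set from all UMIs. By the values at the end, the summed Mcm2-6 ratio was also the lower with both kinds of class thinned or both unthinned. The gap was smaller with both unthinned.

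A member was said to follow Mcm2 to Mcm6 if it had 50 UMIs, a log2 ratio of at least 1 and a ratio above 0 in every set where it had 10 UMIs. By this rule 3 members followed: Hist2h4 (1.05, 0.52 to 1.59), Hist1h3g (1.03, 0.48 to 1.58) and Hist1h4b (1.01, 0.42 to 1.60), against 1.14% of all genes tested. They were also the only members with a ratio of 1 or more when the rule on single sets was dropped, which 1.3% of all genes reached. All 3 had few UMIs (170, 167 and 141) and intervals that reach well under 1. Hist2h4 is an H4 gene on chromosome 3, Hist1h3g an H3 and Hist1h4b an H4 gene of the chromosome 13 cluster. Next came Hist1h2an (0.99) and Hist1h1a (0.89), and the 58 members had a median of 0.50 against -0.06 for all genes. The lowest were Hist1h2bc (-0.91), Hist3h2a (-0.83), Hist3h2ba (-0.56), Hist2h2be (-0.20) and Hist2h2ab (-0.09).
The count depended strongly on how cells were classed. With the Mcm classes taken from all UMIs of each cell, without thinning, 48 members followed and the summed log2 ratio was 2.00. With a minimum of 200 UMIs no member followed, and in ending B alone 11 did.

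No member kept both ratios between -0.5 and 0.5, the rule for not following the cycle, which 68.2% of all genes met. Hist3h2ba came nearest, at -0.56 and -0.08. The rule names only genes inside this band and gives no direction to the others. Hist1h2bc, Hist3h2a and Hist3h2ba fell outside it, with lower levels in cells with Mcm transcripts. This alone does not show that they follow the cycle.

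**Figure D4:**
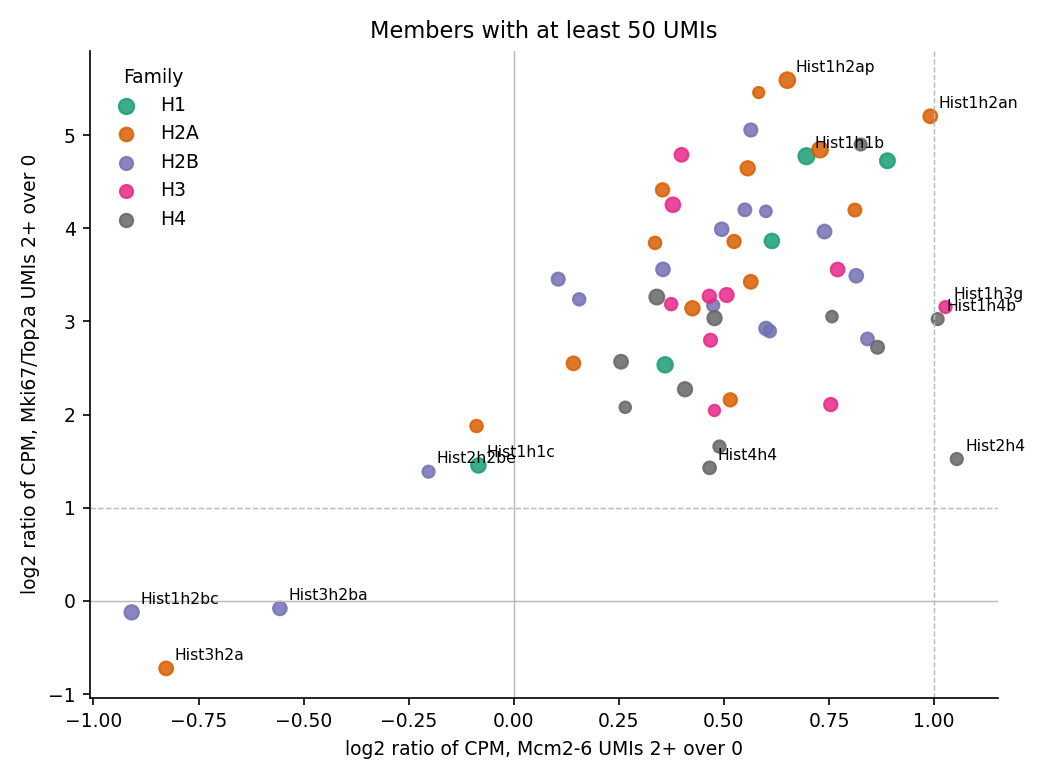
Log2 ratio of CPM for Mcm2-6 classes (2+ over 0 UMIs) and for Mki67/Top2a classes of each of the 58 members with at least 50 UMIs, coloured by family, with larger points for more UMIs; dashed lines mark 1. Nearly all members lie above 1 on the vertical axis, 3 reach 1 on the horizontal axis, and 3 lie at the lower left.

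Genes of replication served as a check of the rule, in a list made with earlier results of these data known. Of 23 tested besides Mcm2 to Mcm6, 20 followed, with a median log2 ratio of 1.49, from Rrm1 (0.78), a ribonucleotide reductase subunit, to Cdc6 (2.57), a loader of the helicase. Of 8 histone chaperones 4 followed, from Rbbp7 (0.22) to Chaf1b (1.94), the latter a subunit of the complex that places new histones behind the fork. Among 12 tested genes of histone gene expression and RNA processing 1 followed, E2f1 (1.89), and Sympk had the lowest ratio (-0.06). Slbp itself stood at 0.93. None of 11 replication-independent histone variants followed, from Cenpa (-1.58), the centromeric H3, to H2afy (0.29), nor did any of 16 G2/M genes, from Cdc20 (-1.78) to Aurkb (-0.11).

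Crossing both markers separated the cells further. In cells thinned to 2000 UMIs, the class Mcm only had 2 or more Mcm2-6 UMIs and 0 UMIs of a list of 16 G2/M genes, G2/M only had the reverse, both had at least 1 of each and neither had 0 of each. The 2606 cells between these classes stood at 485 CPM. The summed histone level was 348 CPM in 4765 cells with neither, 752 (735 to 769) in 980 with Mcm only, 4298 (4275 to 4321) in 2566 with both and 3574 (3545 to 3603) in 1665 with G2/M only. From A1 to B3, cells with Mcm only stood at 850, 801, 549, 372, 429 and 324 CPM, and those with G2/M only at 4603, 3450, 3684, 2321, 2386 and 2183 CPM. Mcm only was lower in every set (log2 ratio -2.34, -2.37 to -2.30).
Against cells with neither, the log2 ratio was 0.94 for Mcm only and 3.23 for G2/M only. From A1 to B3 the ratio for Mcm only was 0.99, 1.17, 0.02, 0.54, 0.72 and 0.37. By family the ratio for Mcm only over neither was 1.21 for H2A, 1.15 for H1, 1.11 for H3, 0.66 for H4 and -0.18 for H2B (60.1 against 62.7 CPM, -0.33 to -0.03). H1, H2A, H3 and H4 were each above 0 in 5 of 6 sets. The exceptions were H1 (-0.02) and H2A (-0.05) in A3, H3 (-0.02) in B3 and H4 (-0.01) in B1. The H2B value rested on Hist1h2bc (-0.80) and Hist3h2ba (-0.83). Without these 2 genes the H2B ratio was 0.94 (0.69 to 1.20), with Mcm only higher in each of the 6 sets, and Hist1h2bm stood at 1.04.

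Of the 58 members, 51 had a log2 ratio of -1 or less for Mcm only over G2/M only, as did 3.79% of all genes. No member was above 0, while 7857 of 14532 genes tested were above 0 and 3% had 1 or more. The classes both and G2/M only held 60.9% and 27.8% of all histone UMIs, and Mcm only held 3.63%. Members with few UMIs thus passed the minimum largely through cells with G2/M transcripts, so these counts describe the members and support nothing further. Hist3h2a was nearest 0 (-0.26). Of the 3 members that met the Mcm rule, Hist1h3g (-1.31, -2.30 to -0.33) and Hist1h4b (-1.36, -2.43 to -0.28) were lower in cells with Mcm only, and the interval of Hist2h4 included 0 (-0.76, -1.75 to 0.22). The 23 replication genes besides Mcm2 to Mcm6 had a median of 0.53, and 6 of them had 1 or more, from Rrm1 (-0.61) to Cdc6 (2.18).
Within classes of G2/M UMIs, levels still differed with Mcm UMIs. In ending A, cells with 0 G2/M UMIs had 446 CPM at 0 Mcm UMIs and 959 at 3 or more, and cells with 6 or more G2/M UMIs had 4247 and 7388. In ending B these were 255 and 401 CPM, and 2452 and 5264, the last over 16 cells. The rise was not steady in every class. In ending B at 3 to 5 G2/M UMIs, cells with 0, 1, 2 and 3 or more Mcm UMIs had 2624, 3763, 3769 and 3299 CPM. In cells with 0 Mki67 and Top2a UMIs the log2 ratio for Mcm2-6 was -0.04 (-0.12 to 0.05), and in cells with 5 or more it was 0.24 (0.22 to 0.25).

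Over the 24 points of 6 sets by 4 phase classes, the members most like summed Mcm2 to Mcm6 were Hist1h1b (Pearson r = 0.41 of log2(CPM + 1)), Hist1h1a (0.40), Hist1h2ap (0.37), Hist1h3a (0.37) and Hist1h2bm (0.34). The points share sets and classes defined by Mcm itself, and these weak values only order the members.

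The endings differed in the balance of families. In class 2+, H1 was at 2042 CPM in ending A and 582 in ending B (log2 ratio 1.81), while H2A was at 1485 and 1392 (0.09), H2B at 212 and 201 (0.08), H3 at 251 and 217 (0.21) and H4 at 312 and 278 (0.17). The H2A value rested on A1: without that set H2A was at 739 CPM in ending A (-0.91, -0.95 to -0.88), while H1 stood at 1.88, H2B at -0.012, H3 at -0.023 and H4 at 0.012. Among H1 genes the ratio ran from 0.90 for Hist1h1d through 1.55 for Hist1h1e, 1.89 for Hist1h1c and 1.92 for Hist1h1b to 2.51 for Hist1h1a. Hist1h2ap was at 667 CPM in ending A and 35.7 in B (4.22), and without A1 at 158 CPM in ending A (2.14, 1.97 to 2.32), below the 2.55 of Hist1h1a. Hist1h2ae went from -0.83 to -1.62 without A1. In the other direction, Hist1h2ag was at 10.2 CPM in ending A and 76.4 in B (-2.91) and Hist1h2bk at 3.35 and 20.5 (-2.61).
Of 56 members, 8 had a log2 ratio of 1 or more and 5 of -1 or less, against 13.4% and 3.29% of all genes, and the medians of members and of all genes were 0.36 and 0.34. Over all cells the summed ratio was 1.53, but it was 0.69 in class 2+ and 0.60 in class 0. The endings differ in their share of cells in class 2+, a class set without thinning, so this share may also reflect depth. The endings also differ in depth and in the symbols counted, so ending, depth and counting cannot be told apart. No label ties an ending to an embryo age, so any part of age could not be tested either.

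Sets A1 and A2 had 53.6% and 55.7% of their cells in class 2+ but unlike histone counts, which was noticed in the data and then described. In class 2+ the family sums were 1941 and 2136 CPM for H1 (log2 ratio -0.14), 2290 and 701 for H2A (1.71), 227 and 199 for H2B (0.19), 290 and 213 for H3 (0.45) and 347 and 273 for H4 (0.35). Hist1h2ap was at 1215 CPM in A1 and 143 in A2 (log2 ratio 3.08, 3.03 to 3.14), the highest ratio of 12468 genes, and at 265 in A3 and 30.4, 41.5 and 33.1 in B1, B2 and B3. It was higher in A1 in class 0 too, at 24.2 against 1.85 CPM.
Of 54 members, 12 had a ratio of 1 or more and 2 of -1 or less, as did 0.409% and 0.0642% of all genes. The 12 included Hist1h3b (2.30), Hist1h2ad (2.06), Hist1h2br (1.91), Hist1h4a (1.79), Hist1h4h (1.78) and Hist1h2ae (1.42), and the 2 were Hist1h2an (-1.29) and Hist1h2af (-1.05). No H1 gene was among them, and Hist1h1b had -0.16. Between B1 and B2, 0 of 38 members passed 2-fold in either direction, as 0.235% of all genes did.

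Other measures stood beside this difference. Gm10076, which is not a histone gene, had the ratio next below that of Hist1h2ap (2.39). The 48 of 51 genes at 1 or more with a known length had a median coding transcript of 946 bases, against 2201 for all genes tested. Without the members the median was 1268 bases over 36 genes. The 14 members past 2-fold shared a median of 68.1% of their 50-base windows with another histone gene, and the 40 within 2-fold 30.7%, so the split of reads among near-identical members is uncertain. Their part in the result was not tested. Without A1, the summed log2 ratio for Mki67 and Top2a was 3.33, for Mcm2-6 0.63 and for ending A over B 1.21.

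**Figure D5:**
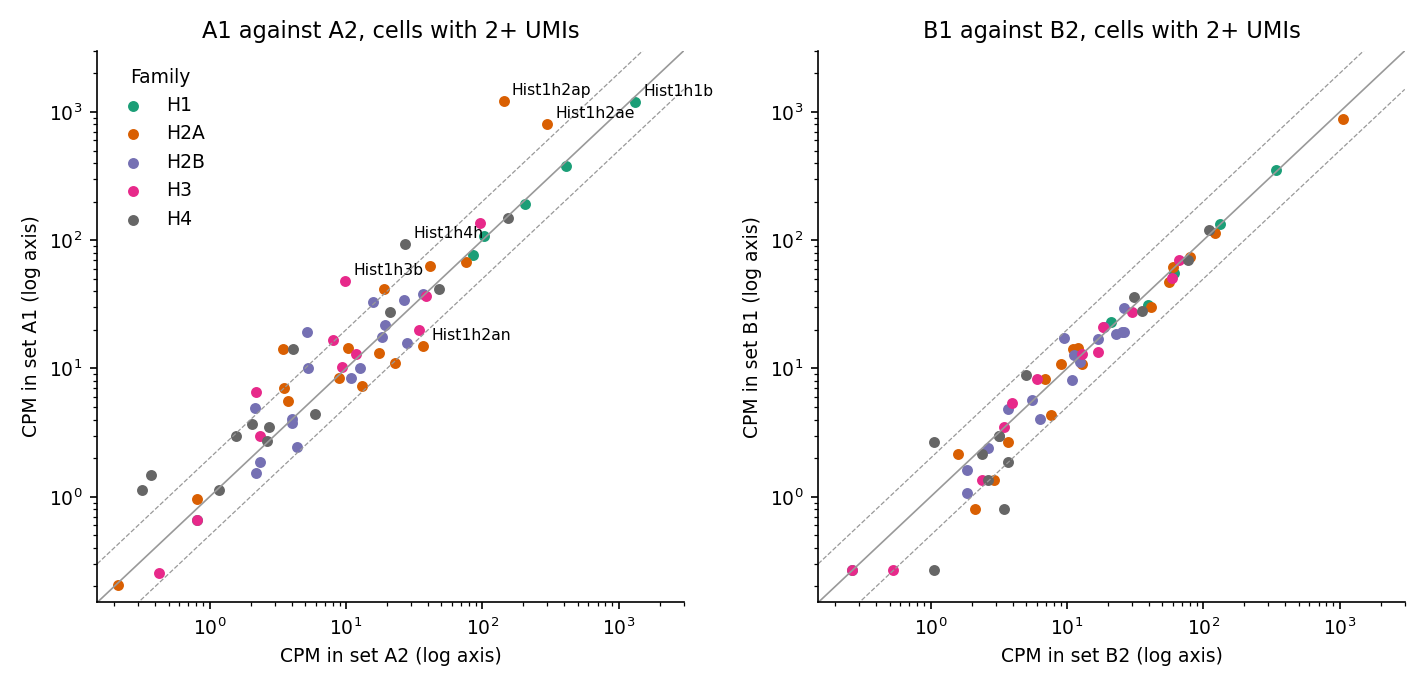
CPM of each member in cells with 2+ Mki67 and Top2a UMIs in A1 against A2 (left) and B1 against B2 (right), both on log axes and coloured by family; the solid line marks equality and the dashed lines 2-fold. Hist1h2ap stands at 1215 CPM in A1 and 143 in A2, whereas H1 members lie near equality.

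PDGFRA-high mesenchyme, the fetal cells rich in Pdgfra and BMP ligands that lie under the epithelium, had few proliferating cells. Of 2996 cells in clusters with that name, 123 were in class 2+, and 3937 of 9591 other mesenchymal cells were. In class 0, histone levels were 352 CPM in PDGFRA-high cells and 295 in the others, a log2 ratio within sets of 0.14 (0.04 to 0.23). This small difference turned to -0.34 when classes came from cells thinned to 2000 UMIs. In class 2+ the levels were 604 and 4104 CPM (-3.11, -3.23 to -2.99). Of the 123 PDGFRA-high cells there, 95 were in A3, and the ratio was -3.35 over the 28 in the other sets. The median Mki67 and Top2a count of these cells was 2 in PDGFRA-high cells and 16 in the others, and 13 PDGFRA-high cells had 5 or more, at 1436 CPM against 4896. Clusters led by cycle genes all took the name of other mesenchyme, so the class and the cycle cannot be told apart here.

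Of 29 members compared in class 0, 1 had a log2 ratio of 1 or more, as did 5.34% of all genes, and 3 had -1 or less, as did 5.63%. Hist1h2be (1.25, 0.24 to 2.26) was the 1 above. Hist1h1e, whose last 300 bases are also part of a Hist1h2be model, had 0.99 (81.0 against 37.9 CPM). Hist1h2bc was lower (22.3 against 38.0 CPM, -1.08), in each of the 6 sets, as were Hist1h2bj (-1.48) and Hist1h2ag (-1.72) overall. Hist3h2a was higher in each of the 6 sets (28.7 against 14.5 CPM, 0.68). In class 2+, 50 of 56 members had -1 or less, as did 11.8% of all genes, none had 1 or more, as did 9.6%, and Hist3h2a (0.34) and Hist2h4 (0.29) were the 2 above 0. In the PDGFRA-high cells of class 2+, 10 of these 56 members had 0 UMIs and 42 had under 10, so they passed the minimum mainly through the other mesenchyme and the count supports nothing further. The H2B of the reporter itself is expressed most in PDGFRA-high cells, and whether its reads entered any H2B count was not tested.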

How the data were processed

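The authors deposited 1 matrix of raw UMI counts per gene and cell for all samples, made with Cell Ranger 2.1.1 and Seurat on mm10 per the submitters' processing notes; mm10 and the GRCm38 reference tables are the same build. Cells with at least 1000 genes and at most 5% mitochondrial UMIs were kept, without 65 called doublets (0.512%). CPM are UMIs scaled to a common total in each group, with exact Poisson intervals. Ratios between classes were combined over the 6 sets by the Mantel-Haenszel estimator, and ratios of 2 sets have exact binomial intervals. Cells were thinned without replacement to 2000 UMIs for the Mcm2-6 and G2/M classes, which left 41 shallower cells out. Clusters (scanpy 1.11.5, resolution 1, each ending apart) were named from marker lists, and another lineage needed 1 of its markers among the top 10 genes, a rule added after a cluster led by Slco2a1 had been misnamed. Each member's model was its longest coding transcript with a stem-loop match, or else its longest. Ratio estimates were tested on simulated data. Members named with values are the 10 with the most UMIs, the 5 highest and 5 lowest Mcm2-6 ratios, those most like Mcm2-6, and others singled out after their values were seen. The members, lists and classes were chosen with earlier results of these data known.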

Additional observations from a re-analysis of the deposited data

How the results depend on the processing

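No paired analysis was possible because the lanes numbered in the labels are not tied to cells. The summed Mki67/Top2a log2 ratio (3.55) stayed positive in every alternative run: 3.69 without strata, 3.58 in ending A and 3.43 in ending B alone, 3.29 with thinned classes, 3.34 with Mki67 alone, 3.28 without Hist1h1b, 3.32 as a mean of per-cell CPM, and, chosen after seeing the data, 3.33 without A1, 3.83 for 5+ and 0.79 for 2 to 4 over 0. The Mcm2-6 ratio (0.56) was 1.01 without strata, 0.54 in ending A, 0.79 in ending B, 2.00 with classes from all UMIs, 0.47 and 0.78 at thinning depths of 1500 and 3000, 0.51 without Hist1h1b, and, chosen after seeing the data, 0.63 without A1, 0.24 in cells with 5+ Mki67/Top2a UMIs and -0.038 in cells with 0. The count of members following Mcm2-6 (3) was 1 with no cell filter, 15 without strata, 1 in ending A, 11 in ending B, 48 with classes from all UMIs, 0 at a minimum of 200 UMIs and 16 at a log2 ratio of 0.58; the same rule with Mki67/Top2a classes, added later, gave 53. The count not following the cycle (0) was 1 in ending A alone. Ending A over B (1.53) was 0.60 in cells with 0 and 0.69 in cells with 2+ Mki67/Top2a UMIs and 1.21 without A1, the last 2 added later. Mcm only over G2/M only (-2.34) was -2.54 at a depth of 3000. PDGFRA-high over other mesenchyme in class 0 (0.14) was 0.26 without strata, 0.31 in ending A and -0.34 with thinned classes; in class 2+ (-3.11) it was -3.35 with doublets kept, -2.76 without strata, -2.66 in ending B and -2.32 with thinned classes. The values given without A1, without A3 or without Hist1h2bc and Hist3h2ba were all chosen after seeing the data. The causes were not tested beyond what each alternative changes. No newer symbol of a member was in the matrix, so summing older and newer symbols changed nothing. Depth limits the classes: at 2000 UMIs, 0 Mcm2-6 UMIs does not show that a cell lacks these transcripts.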
